A study of Mus musculus with 28 samples.

Results

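The contacts of PE Six3, a poised enhancer of the homeobox gene Six3, were compared between wild type mouse embryonic stem cells (ESC) and cells of genotype del36, which lack the domain boundary between Six3 and Six2. The comparison rests on 2 of the 13 libraries with data in a series that lists 28 samples: every library whose title names PE Six3 as the viewpoint and either wild type or del36 as the genotype. Both are circular chromosome conformation capture (4C-seq) libraries of the E14Tg2a line, labelled as ESC in 2i+LIF, although the growth protocol names serum and LIF. Neither carries an insert or a treatment, and del36 is the only allele in which they differ by label. The sources used here do not say how many clones stand behind del36, and 4C-seq reports no expression, so the cell identity was not checked against markers. There was 1 library per genotype, so each difference is between 2 libraries, no test between genotypes was possible, and the intervals given cover counting error only.

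In 4C-seq, crosslinked chromatin is digested and ligated, and inverse PCR from a chosen fragment, the viewpoint, reads out what was joined to it, so that the reads of a fragment rise with how often it lay near the viewpoint. Contacts fall with distance along the chromosome and are usually fewer across the boundary of a topologically associating domain (TAD). Poised enhancers are regulatory elements of developmental genes that are inactive in ESC, and many already lie near their target promoters there. Six3 acts in forebrain and eye development, Six2 in kidney progenitors, and their promoters lie on opposite sides of the boundary.

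The viewpoint fragment was chr17:85485041-85485766 (mm10) in both libraries, taken as the fragment with most reads. It lies between the Camkmt gene and the Six3 locus. The stretch taken as deleted, chr17:85629635-85666796, was the longest without reads in del36 between the viewpoint and Six2. Its edges are set by the nearest fragments with reads in del36, so it can be longer than the deletion itself. It is 37.2 kb long, begins 3.44 kb downstream of where Six3 ends by annotation, and overlaps 4.06 kb of the annotated Six2 span. Its near edge lies 144 kb from the viewpoint. Its far edge lies 181 kb away in wild type, and 144 kb away in del36 once the missing DNA is subtracted. The Six2 promoter fragment, chr17:85689020-85689800, thereby moves from 204 kb to 167 kb.

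The promoters whose contacts are described below are printed here from RefSeq (GRCm38.p6, the assembly of mm10), from 250 bases before to 50 after the start, 5′ to 3′ on the gene's own strand. Capitals mark CATG and GATC, the sites of the 4C enzymes NlaIII and DpnII, which set the fragments that can be read. Six3 is at chr17:85620584-85620883 (plus strand), its antisense neighbour Six3os1 at chr17:85618347-85618646 (minus) and Six2 at chr17:85688205-85688504 (minus).
Six3: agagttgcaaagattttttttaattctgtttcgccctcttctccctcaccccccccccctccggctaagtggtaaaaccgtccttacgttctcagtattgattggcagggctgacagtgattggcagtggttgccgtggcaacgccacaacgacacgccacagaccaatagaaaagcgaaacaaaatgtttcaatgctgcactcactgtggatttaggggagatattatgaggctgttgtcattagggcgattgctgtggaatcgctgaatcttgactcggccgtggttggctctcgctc
Six3os1: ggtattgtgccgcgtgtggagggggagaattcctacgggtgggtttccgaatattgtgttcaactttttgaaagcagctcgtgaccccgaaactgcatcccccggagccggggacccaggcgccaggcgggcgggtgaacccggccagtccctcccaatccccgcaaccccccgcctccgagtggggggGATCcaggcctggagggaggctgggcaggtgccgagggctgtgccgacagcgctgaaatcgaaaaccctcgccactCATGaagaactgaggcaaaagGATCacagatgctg
Six2: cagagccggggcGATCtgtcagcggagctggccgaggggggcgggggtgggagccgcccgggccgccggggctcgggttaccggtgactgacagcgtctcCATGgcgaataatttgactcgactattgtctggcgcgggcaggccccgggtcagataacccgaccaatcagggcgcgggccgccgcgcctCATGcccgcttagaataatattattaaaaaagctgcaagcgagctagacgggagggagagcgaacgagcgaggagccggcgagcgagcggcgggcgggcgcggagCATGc

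The Six3 sequence holds neither site and lies inside a single fragment. Six3os1 holds 1 CATG and 2 GATC, and Six2 holds 3 CATG and 1 GATC. Both motifs read the same on either strand, and among 32817 promoters of this length 61.1% hold CATG, 48.0% hold GATC and 78.9% hold at least 1 of them. All 33 fragment edges that fell inside promoters of chromosome 17 lay within 5 bases of such a site. CG dinucleotides number 14 in Six3, 20 in Six3os1 and 37 in Six2, and 36.3%, 26.5% and 5.59% of all promoters hold at least as many. The fragment over the Six3 sequence had 339 reads in wild type and 109 in del36. The small fragments inside the Six2 sequence had 0 reads in wild type and 34 in del36, so what is described at Six2 below rests on the fragments around the promoter sequence rather than on the sequence itself.

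The libraries differed in depth, in the share of reads on chromosome 17 and in how widely their reads were spread. Chromosome 17 held 93.2% of all reads in wild type and 82.8% in del36. Whether this bears on the differences below was not tested. The wild type library held 7730539 reads, of which 66.3% lay on the viewpoint fragment, and del36 held 2238911, of which 35.2% did. Local reads, those within 1 Mb of the viewpoint with 10 kb on each side left out, numbered 1218764 in wild type and 355383 in del36. These are 15.8% and 15.9% of the libraries. Although it was 3.43 times as deep, the wild type library had local reads on 1076 fragments against 1602 in del36. Drawn down to the local reads of del36, it would show 961 fragments by the exact hypergeometric expectation, so that del36 covered 1.67 times as many at equal depth. The excess was largest beyond the deleted stretch, where del36 covered 506 fragments and wild type 219 at equal depth, a factor of 2.31. Between the viewpoint and the stretch the factor was 1.41, and on the other side of the viewpoint 1.63.

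**Figure D1:**
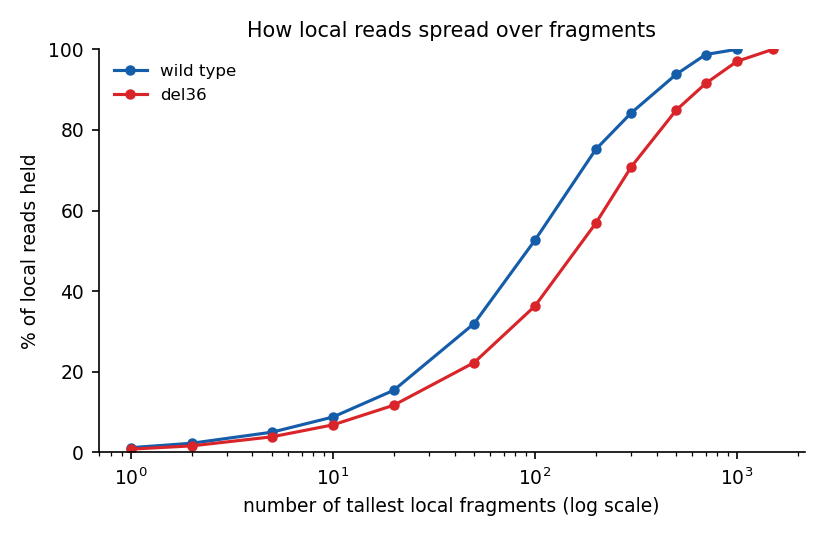
Percent of local reads (vertical axis) held by a given number of tallest fragments (horizontal axis, log scale) in the wild type and del36 libraries. The 10 tallest fragments held 8.78% in wild type and 6.83% in del36, and 93 and 163 fragments respectively held 50% or more of the reads.

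Only 493 fragments were read in both libraries, 45.8% of those in wild type and 30.8% of those in del36. They held 45.9% of local reads in wild type and 49.1% in del36. Shared fragments made up 71.8% of the wild type fragments between the viewpoint and the stretch and 38.3% of those beyond it. Fragment by fragment the libraries thus had little in common, and the main sums are also given below over fragments that both libraries read well.

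PE Six3 had a larger share of its local contacts beyond the deleted stretch, on the Six2 side, in del36. That side held 18.8% of local reads in wild type (95% Wilson interval 18.7% to 18.9%) and 29.5% in del36 (29.4% to 29.7%). The other side of the viewpoint, which carries Camkmt and the genes beyond it, went the opposite way, from 55.6% to 46.3%. The stretch of chromosome between the viewpoint and the deletion held 22.0% in wild type and 24.2% in del36. In wild type the deleted stretch itself had 3.52% of local reads, on 46 fragments.

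The deletion also brings everything beyond it 37.2 kb nearer, and contacts fall with distance. Reads beyond the stretch were therefore set against reads at the same distances from the viewpoint on the other side, with distances in del36 counted without the missing DNA. In wild type the Six2 side had 0.622 times the reads of the other side, 18.8% against 30.2%. In del36 it had 0.997 times, 29.5% against 29.6%. The sides were thus uneven in wild type and nearly even in del36, a log2 change of 0.68 (0.67 to 0.69). Without the correction the change was 0.77. Before the stretch, where distances are the same in both genotypes, reads also rose against the other side in 3 of 3 steps of up to 50 kb. These steps stood at 0.750, 0.763 and 1.95 times the other side in wild type and 0.978, 1.11 and 2.85 times in del36. The log2 changes there were 0.38, 0.54 and 0.55, so a rise by this comparison was not particular to the region beyond the stretch. On the undeleted side, counting from 144 kb in place of 181 kb gave 1.15 times the reads in wild type and 1.06 times in del36. The same measure from the Six2 promoter, in the reciprocal pair of libraries and past the same stretch, gave 0.876 in wild type and 1.35 in del36, a log2 change of 0.63 (0.61 to 0.65).

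**Figure D2:**
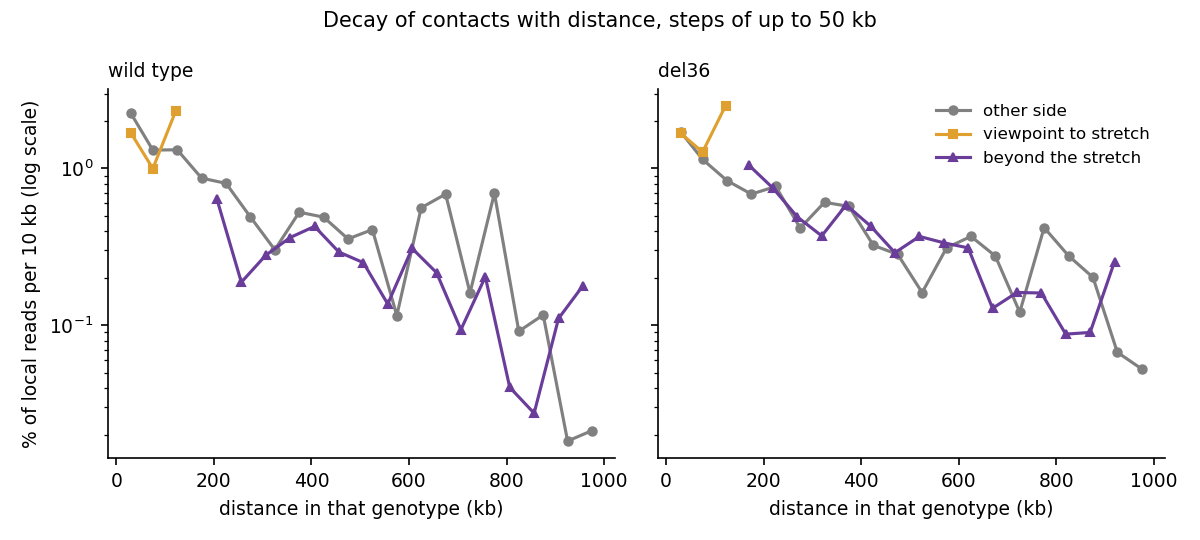
Percent of local reads per 10 kb (vertical axis, log scale) in steps of up to 50 kb against the distance from the viewpoint in that genotype (kb), in wild type (left) and del36 (right), with 1 line for each side or interval. Beyond the stretch 3 of 17 steps lie above the other side at equal distance in wild type and 8 of 17 in del36. The last step, from 981 to 1000 kb in wild type, is counted but not drawn. It is one of the 8 in del36, against a counterpart with 0.0084% of local reads.

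In steps of 50 kb beyond the stretch, 15 of 17 held a larger share in del36. The first step, which holds Six2, rose from 3.18% to 5.27%. The second held 0.941% in wild type and 3.75% in del36, the largest change within 500 kb, with reads on 22 and 53 fragments. At equal distance on the other side these 2 steps had 2.36% and 4.07% in wild type and 3.45% and 3.89% in del36. The first step thus stood above its counterpart in both libraries, at 1.35 times in wild type and 1.53 times in del36, a log2 change of 0.18. The second stood at 0.231 times its counterpart in wild type and 0.962 times in del36. On the other side of the viewpoint 7 of 20 steps were higher in del36 and 13 lower, and the 6 steps nearest the viewpoint were all lower, by log2 0.07 to 0.65. The last 4 steps there, from 800 kb outward, were all higher in del36, on 4 to 13 wild type fragments each.

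The larger share beyond the stretch was not seen on the fragments that both libraries read well. Most reads there were on fragments of 1 library: 70.9% of the wild type reads lay where del36 had none, and 62.5% of the del36 reads where wild type had none. A further 26.3% of the del36 reads lay on 46 fragments with 1 to 3 reads in wild type, and 6.44% of the wild type reads on 6 fragments with 1 to 3 reads in del36. Over the 304 local fragments with at least 10 reads in both libraries, the region beyond held 10.5% in wild type and 10.9% in del36. This choice removes fragments that are low in either library, so it cannot show a gain on fragments that were unread before. On these fragments the side-to-side change was -0.11 in place of 0.68. They carry 39.2% of local reads in wild type and 30.3% in del36. Counting each covered fragment once at equal depth gave a side-to-side change of 0.34. The different spread of reads over fragments in the libraries therefore moves with this result, and its part in it was not tested.

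The drop in contacts across the stretch was shallower in del36. In wild type the 50 kb before the stretch held 11.01% of local reads and the 50 kb after it 3.18%, a ratio of 0.289. In del36 these were 11.5% and 5.27%, a ratio of 0.458. The log2 change of the ratio was 0.66 (0.63 to 0.69) and became 0.92 with 100 kb on each side. In del36 the flanks adjoin, and this ratio is not corrected for that. On fragments with at least 10 reads in both libraries the change was -0.13.

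Within the first 50 kb past the stretch, the largest difference lay at the Six2 promoter. The 10-kb windows from the far edge outward held 1.27%, 0.648%, 0.372%, 0.595% and 0.297% of local reads in wild type. In del36 they held 1.36%, 0.645%, 2.19%, 0.695% and 0.379% in the same order. The third, which holds the Six2 promoter fragment, was 5.89 times as high in del36, and its 4 neighbours were 0.996 to 1.28 times as high. The next window outward, past the first 50 kb, was 2.82 times as high. A larger ratio than that at Six2 was found in 27 of 79 windows beyond the stretch with enough reads, 6 of them without wild type reads, so a ratio of this size was not particular to Six2. Those 27 held at most 0.0846% in wild type and 1.02% in del36. Among the 81 windows of this size beyond the stretch, the Six2 window ranked 23 in wild type and 1 in del36, where the next highest held 1.36%. Retained Six2 sequence as a whole, 21.5 kb of gene body outside the stretch, held 2.03% in wild type and 2.16% in del36. The sum over the gene body thus did not share the change at its promoter. Near the start, the gene-body fragments chr17:85684340-85685212 and chr17:85685737-85687943 were higher in del36, at log2 1.44 and 0.46.

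**Figure D3:**
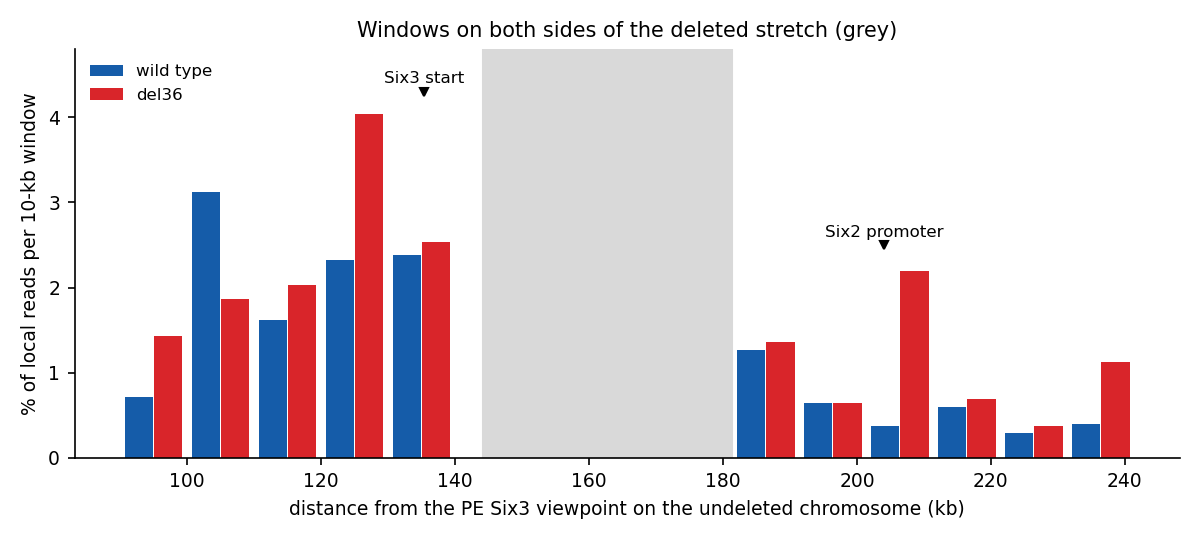
Percent of local reads in each 10-kb window (vertical axis) against its distance from the viewpoint on the undeleted chromosome (kb) in wild type and del36, with the deleted stretch in grey. The window at the Six2 promoter stands at 0.372% in wild type and 2.19% in del36, while the 4 other windows of the first 50 kb past the stretch differ by at most 1.28 times.

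A window of 5 kb on each side of the Six2 promoter fragment held 0.398% in wild type (0.387% to 0.410%). Its share in del36 was 2.10% (2.05% to 2.14%), which gives log2 2.40 (2.34 to 2.45). Relative to the mean of a 50-kb interval at the same corrected distance on the other side, it stood at 0.822 in wild type and 2.85 in del36. Windows of the same size at 0.5 to 2 times its distance, with distances corrected, were placed every 5 kb, so that neighbours overlap. Of these, 63 of 108 were higher in wild type and 8 of 94 in del36. The window was thus near the middle for its distance in wild type and near the top in del36, also after the shorter distance was allowed for.

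All 9 fragments that wild type read in this window had a larger share in del36, where 56.8% of all shared local fragments did. Of these, 7 had at least 10 reads in both libraries, and all 7 were higher in del36, by 1.38 to 6.63 times. Among all local fragments with at least 10 reads in both libraries, 44.1% were higher. The fragment that served as the Six2 promoter viewpoint had 983 reads in wild type, 0.0807% of local reads, and 823 in del36, 0.232%. The fragment at chr17:85693069-85693451, upstream of the Six2 start, had 518 reads in wild type and 1001 in del36, 0.0425% and 0.282%. At chr17:85685737-85687943, inside the first part of the gene, the wild type library had its most reads of the window, 1368 or 0.112%, against 550 or 0.155% in del36. Among the 7 fragments the log2 ratio ran from 0.46 to 2.73, the lowest inside the gene and the highest upstream of it.

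A further 8 fragments of the window were read in del36 only, with 1762 reads, of which 1267 lay at chr17:85689805-85690021. Another, at chr17:85690229-85690589, had 1 read in wild type and 1263 in del36. Without the tallest fragment of each library the window was 6.09 times as high in del36, and on fragments with at least 10 reads in both libraries its log2 ratio was 2.02. At equal depth del36 covered 17 fragments in the window and wild type 8.11. As a share of all covered local fragments, which were more numerous in del36, this gives a log2 ratio of 0.33. The larger share at Six2 thus did not rest on a single fragment.

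On its own side of the boundary PE Six3 contacted the Six3 locus strongly in both genotypes. The interval from Six3os1, a long non-coding RNA gene that overlaps Six3, to the stretch held 2.24% of local reads per 10 kb in wild type and 2.76% in del36. The 106.5 kb between the viewpoint and Six3os1 held 1.48% and 1.55% per 10 kb. At the Six3 start the 10-kb window held 2.44% in wild type (2.42% to 2.47%). Its share in del36 was 2.80% (2.74% to 2.85%), which gives log2 0.19 (0.16 to 0.23). Relative to the mean of a 50-kb interval at the same distance on the other side, it stood at 1.59 in wild type and 3.90 in del36. That counterpart held 1.54% in wild type and 0.717% in del36. A rise by this measure was thus not particular to Six2. Only 5 of 70 windows at like distance, again overlapping, were higher than the Six3 window in wild type, and 1 of 77 in del36. The window at the Six3os1 start, 2.44 kb away and overlapping it, held 3.21% and 3.42%, with 1 of 67 and 0 of 74 matched windows higher.

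Inside the Six3 window the fragments moved in both directions. The tallest in wild type, chr17:85621480-85621742 in the Six3 gene, had 11090 reads, 0.910% of local reads, against 789 or 0.222% in del36. The fragment after it, chr17:85621747-85622289, had 8115 reads or 0.666% in wild type and 527 or 0.148% in del36. At chr17:85618382-85619399, between the starts of Six3os1 and Six3, wild type had 504 reads or 0.0414% and del36 2875 or 0.809%. Of 12 fragments read in both libraries 7 were higher in del36 and 5 lower, so the nearly equal sums hide unequal parts. A window at the beginning of the annotated Six3 span, 7.23 kb before the start used here, held 2.29% in wild type and 4.02% in del36, a log2 ratio of 0.81. At equal depth del36 covered 14 fragments in the Six3 window and wild type 12.3. As a share of all covered local fragments, which were more numerous in del36, the window was lower in del36, at log2 -0.55. On fragments with at least 10 reads in both libraries it was at 0.18.

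The tallest fragments of the libraries differed accordingly. In del36, 4 of the 5 tallest lay in the Six3os1 and Six3 genes, 125.5 to 133 kb from the viewpoint, with 0.6998% to 0.809% of local reads each. In wild type 1 of the 5 did, and the 2 tallest lay 12.3 and 15.1 kb from the viewpoint toward Camkmt, with 1.10% and 1.18%. Among the 20 tallest, 10 in del36 and 5 in wild type lay between the viewpoint and the stretch, and 9 and 13 on the other side. The tallest del36 fragment, chr17:85162620-85162863, lay 323 kb away in Camkmt and in the non-coding gene Gm36826, with 2894 reads against 421 in wild type.

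Contacts were also measured at gene starts, 5 kb on each side, for the 25 protein-coding and long non-coding genes in range with a start in the promoter table. Of 13 protein-coding genes, Dync2li1, Srbd1 and Prkce had no entry there and were measured over their spans only. Neighbouring starts share windows: Abcg5 with Abcg8, Prepl with Camkmt, Six2 with CJ186046Rik and Gm29418 with Gm4718, among 7 overlapping pairs. Counts leave out Six3, Six2 and CJ186046Rik, take starts with the same reads once and keep windows with at least 10 reads in either library at the depth of del36. Beyond the stretch 3 of 7 windows were then at least 2-fold higher in del36 and 2 at least 2-fold lower. On the other side these counts were 3 and 5 of 11. Of those 5, Ppm1b and 1110020A21Rik start 0.682 kb apart. Their wild type reads, 6813 in each window, lay on the same 1 fragment. Of all 10-kb windows with enough reads, 40.7% were at least 2-fold higher and 22.8% at least 2-fold lower, and 58.2% were higher by any amount. Beyond the stretch the count of higher starts was near that background.

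**Figure D4:**
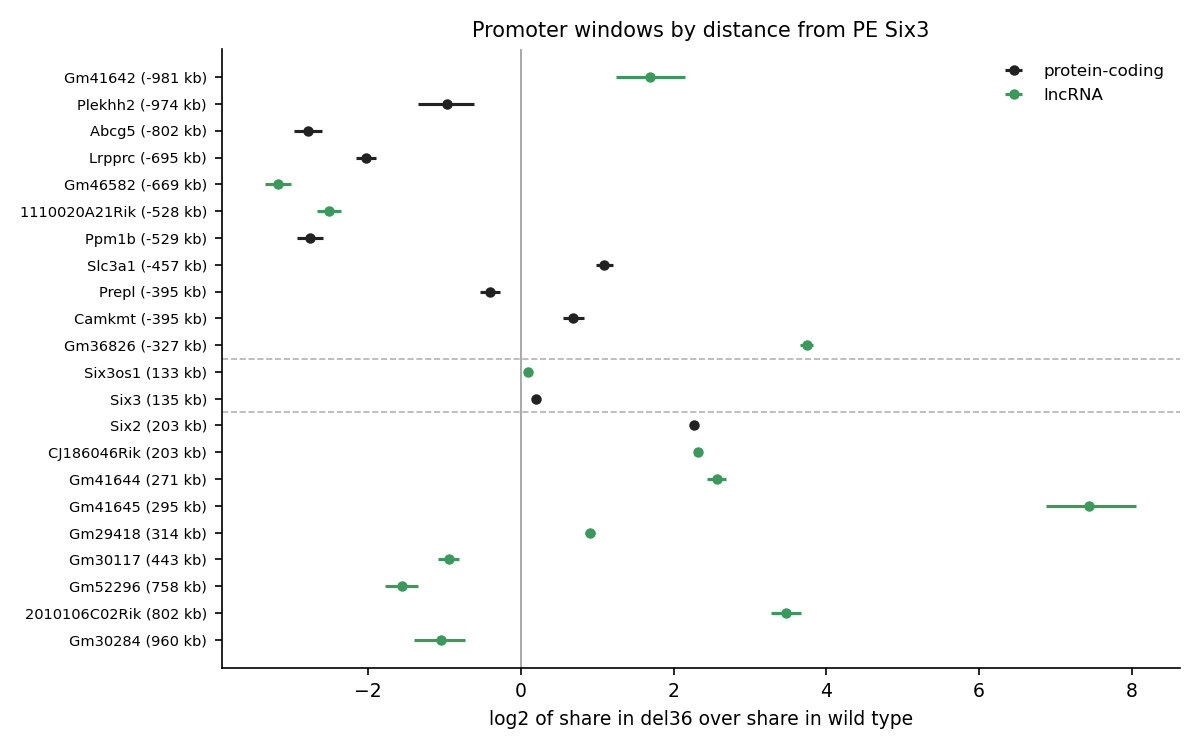
Log2 ratio of the share in del36 over that in wild type (horizontal axis) of the 10-kb window at each gene start, ordered by distance from the viewpoint (kb, negative on the Camkmt side), with exact 95% intervals for counting error. Dashed lines mark the viewpoint and the deleted stretch, starts with the same reads are drawn once, and the start of 4930500A05Rik, with 0 wild type reads, is left out. The Six2 start stands at 2.27 and the Six3 start at 0.19.

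Beyond the stretch the non-coding gene CJ186046Rik, which starts 0.24 kb from Six2 in the opposite direction, was at 2.32 (log2) in a window nearly the same as that of Six2. The start of Gm41644 held 0.0711% in wild type and 0.421% in del36, a log2 ratio of 2.56, and that of Gm41645 held 0.0021% and 0.370%. Corrected for distance, Gm41644 stood at 0.139 times its counterpart on the other side in wild type and at 0.773 in del36. Gm41645 stood at 0.005 and 0.768. 2010106C02Rik, 802 kb away, stood at 0.041 and 0.618, while Gm29418 and Gm4718 stood above their counterpart in both libraries, at 1.66 and 2.01. The start of Six2 stood at 0.782 in wild type and 3.09 in del36. Gm30117, 443 kb away, was lower in del36, at -0.95, as were Gm52296 in Prkce at -1.56 and Gm30284 at -1.05. Corrected for distance, Gm30117 stood at 0.653 in wild type and 0.309 in del36, and Gm30284 at 3.20 and 0.305. Gm52296 stood at 0.398 and 0.590, higher in del36 by that measure.

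On the other side the starts of Abcg5 and Abcg8, whose products together form a sterol transporter, shared a window at -2.79 (log2), on 5941 reads in wild type and 251 in del36. Lrpprc, a gene for an RNA-binding protein of mitochondria, was at -2.03 and Ppm1b, a protein phosphatase gene, at -2.76. In the Ppm1b window all 6813 wild type reads lay on 1 fragment. Slc3a1, an amino acid transporter gene, was at 1.09 and Gm36826 at 3.74. With Abcg5 and Abcg8 taken once, 5 of 7 protein-coding starts on this side were lower in del36 and 2 higher, where 49.5% of all windows of the side were higher.

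Over whole gene spans 8 of 14 were higher in del36 and 6 lower, where 58.2% of all 10-kb windows were higher. All 5 spans from the viewpoint toward Six3 and beyond were higher. Of the windows there, 69.2% before the stretch and 67.1% beyond it were higher. The 3 spans of the homeobox locus are among those 5, so their count did not differ from that of their side. Six3os1 was at 0.61 (log2), Six3 at 0.18 and the retained part of Six2 at 0.09. Of 7 genes grouped as widely expressed, a label not checked here, 2 were higher and 5 lower. They were Camkmt, Prepl, Slc3a1, Ppm1b, Lrpprc, Dync2li1 and Srbd1. Values ran from -0.86 for Prepl to 0.35 for Srbd1, and none reached 2-fold. All but Srbd1 lay on the other side of the viewpoint, where 3 of 9 spans and 49.5% of all windows were higher. Camkmt, which spans 368 kb on the other side of the viewpoint, held the most reads of any gene, 29.8% in wild type and 27.3% in del36. The sterol transporter genes split, Abcg5 at 0.84 and Abcg8 at -0.95. Of the other genes listed, Prkce, a protein kinase gene, was at 0.47. Plekhh2 was at 3.06, on 1832 reads from 7 fragments in wild type and 4457 from 24 in del36, and was the single span of 14 past 2-fold. Thada, Epas1 and Zfp36l2 lay outside the range. Direction differed between start and span for Abcg5, Slc3a1, Camkmt and Plekhh2, whose start was at -0.97, so a gene's direction here depends on the window.

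Beyond the stretch 50.6% of 79 windows of 10 kb with enough reads were at least 2-fold higher in del36 and 16.5% at least 2-fold lower, with a median log2 ratio of 1.05. On the other side these were 36.1% and 30.9% of 97 windows, with a median of -0.01. Between the viewpoint and the stretch 2 of 13 were higher and 0 lower by that measure, at a median of 0.32. Wild type had 13 of 81 windows beyond the stretch with fewer than 10 reads, and del36 had 4. Among windows with enough reads, wild type had none in 11 that del36 read, 5 of them on the other side. The one with most del36 reads, 1404, lay 825 kb away on the other side and was at least 1605-fold higher against a floor of 3 wild type reads. Among windows read in both libraries, the 3 with the largest ratios lay beyond the stretch and rest on 1 or 2 wild type reads. The first, chr17:85736798-85746797, had 2 reads in wild type and 2554 on 10 fragments in del36, a log2 ratio of 12.1 (10.2 to 15.1). The others, in Srbd1 and Prkce, had 1 read each in wild type and 815 and 480 in del36, at 11.4 (8.97 to 16.8) and 10.7 (8.20 to 16.0). The del36 library had no reads in 3 such windows that wild type read, of which the one with most, 589 reads, lay beyond the stretch, 726 kb from the viewpoint, and was at least 57.2-fold lower against a floor of 3 reads. Among windows read in both libraries the lowest were at -5.56 in Abcg5, with 2434 reads in wild type and 15 in del36, at -4.41 in a gene-free window 595 kb away, and at -4.08 in Prkce.

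**Figure D5:**
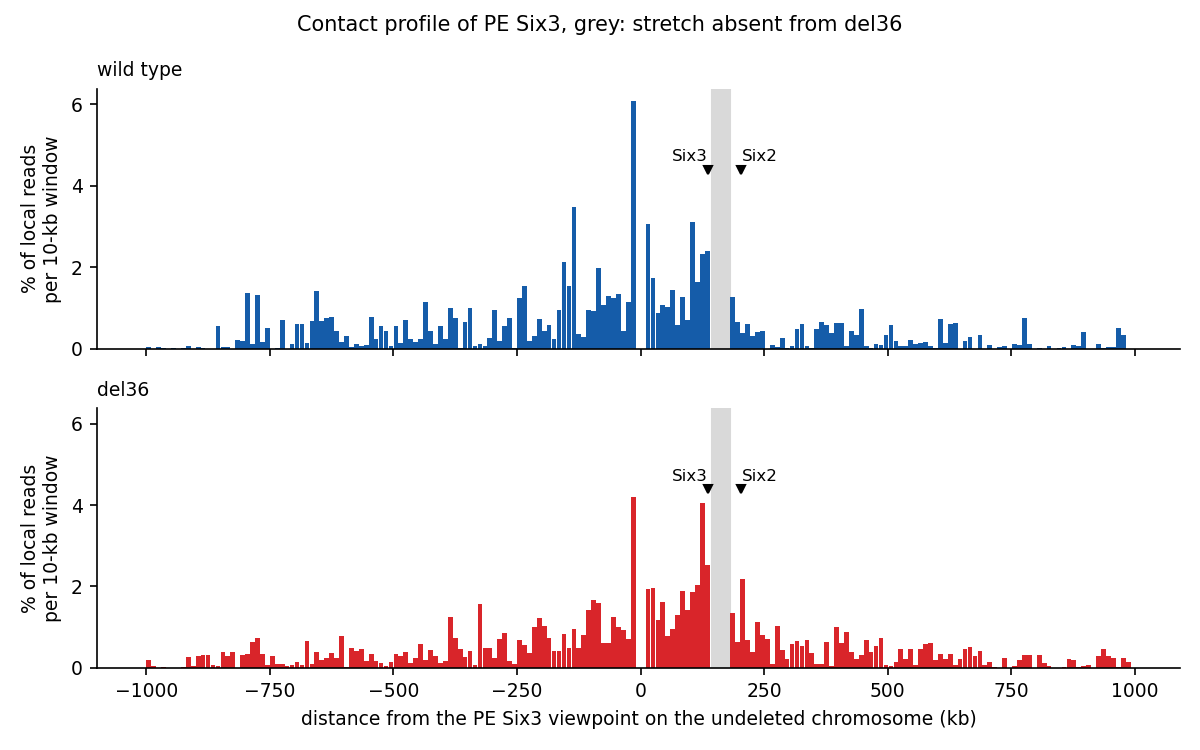
Percent of local reads per 10-kb window (vertical axis) against the distance from the viewpoint on the undeleted chromosome (kb) in wild type (top) and del36 (bottom), with the deleted stretch in grey and the Six3 and Six2 starts marked. Beyond the stretch the median window holds 0.101% in wild type and 0.286% in del36.

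The shape of the profile was kept in part. Over 193 windows Spearman's correlation between the libraries was 0.53. It was 0.66 over the 13 windows between the viewpoint and the stretch, 0.50 over 99 on the other side and 0.35 over 81 beyond the stretch. These are descriptions across windows that share the fall with distance within each library, and carry no test. On the other side of the viewpoint 50% of the reads lay within 236 kb in both libraries. Toward Six3 that distance, counted in each genotype's own DNA, was 147 kb in wild type and 167 kb in del36.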

How the data were processed

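Each deposited file gives the RPM of restriction fragments of 1 library, that is reads scaled to library depth, per the file headers. Per the submitters' processing notes the aligner was HISAT2 and the build mm10. Its version and any read filters: not given in the sources used here. In both libraries 100% of values were whole multiples of the smallest within 0.1, so reads were recovered by division. With 1 library per genotype a count test across fragments was not run.

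Fragments were placed by their middle. Values were compared as shares of local reads. Shares have 95% Wilson intervals, ratios exact conditional intervals, and ratios of 4 sums normal-approximation intervals. PCR reads are not independent molecules, so these cover counting error only. Windows of 10 kb were kept with at least 10 reads in either library at the depth of del36. Starts and spans came from RefSeq tables of GRCm38.p6 and the promoter table gives 1 start per gene. The text names all protein-coding genes in range, Six3os1, the viewpoints, the 5 tallest fragments of each library and the 3 most changed windows each way among those read in both libraries. Other non-coding starts, the tallest 20 fragments and single fragments of the Six2 and Six3 windows were added after their values were seen. Members, lists and the deleted stretch were chosen with earlier results of these data known. Alternatives were other denominators, windows, ranges, flanks and minimums, capped fragments, covered fragments, no distance correction and subsets of fragments. Functions were tested on simulated data. Python 3.11.15, pandas 2.3.3, NumPy 2.4.6 and SciPy 1.17.1 were used.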

Additional observations from a re-analysis of the deposited data

How the results depend on the processing

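Of 58 alternatives, 24 left a value within its counting interval (a count within 1.5 times), 31 moved it in the same direction and 3 reversed it. The reversals on fragments with at least 10 reads in both libraries were the side-to-side change at -0.11 and the step across the stretch at -0.13. The other reversal was the Six3 window, at -0.55 as a share of all covered local fragments. The cause was not tested. On those well-read fragments the log2 ratio of the share beyond the stretch was 0.042 and that of the Six2 window 2.02. This setting, fragments read in both libraries at any depth, the wild type total without the deleted stretch and the beginning of the Six3 span were chosen after seeing the data.

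For the share beyond the stretch, main value 0.65, the other values were 0.83 per chromosome reads, 0.60 with 25 kb left out, 0.75 within 500 kb, 0.47 on covered fragments, 0.92 on shared fragments and 0.60 without the stretch in the total. The side-to-side change was 0.61 within 500 kb, 0.71 with capped fragments, 0.34 on covered and 0.92 on shared fragments, and 0.77 uncorrected for distance. The Six2 window, main value 2.40, was at 1.98 with 10 kb on each side, 1.91 on shared fragments and 2.58 per chromosome reads. As a share of all covered local fragments it was at 0.33. The Six3 window, main value 0.19, was at 0.26 with 10 kb on each side, 0.14 with 25 kb left out, 0.14 capped, 0.024 on shared fragments, 0.14 without the stretch in the total, 0.37 per chromosome reads and 0.81 at the beginning of the span. The step was 0.82 capped, 0.92 with 100-kb flanks and 0.48 on shared fragments. Windows at least 2-fold higher or lower numbered 77 and 43, or 27 and 16 within 500 kb and 31 and 19 with 20-kb windows, where fewer windows were measured. No paired analysis was possible because each genotype has 1 library. Depth allows a share of up to 0.00025% in wild type and 0.00084% in del36 where no read was seen.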
